A study of Homo sapiens with 6 samples.

Results

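The Fc receptor-like genes form a family of 8 human genes, FCRL1 to FCRL6, FCRLA and FCRLB, and all 8 were found among the 62703 genes of the deposited tables by their Ensembl identifiers. They were followed in H929 (NCI-H929), an established human multiple myeloma line of wild-type genotype per the labels. The treated cells were given 1 µM of the compound Mi-2, which inhibits the MALT1 protease, for 24 h (3 libraries), and the control cells received its solvent DMSO for 24 h (3 libraries). Nothing in the labels says that the libraries of a group came from separate cultures, and every sample title ends in bio rep 1. Errors and p-values thus measure only how much these samples differ, and that spread may be technical. The family was chosen by the fold changes of FCRL2 and FCRL3, which were among the lowest of all genes in this same contrast, so values of its members between treatments are given as a description, with no p-value, and nothing is read from how many of them passed a threshold.

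Fc receptor-like proteins resemble the classical receptors for the constant part of antibodies. FCRL1 to FCRL5 are surface proteins of B-lineage cells whose cytoplasmic tails carry activating (ITAM-like) or inhibitory (ITIM) tyrosine motifs that recruit kinases or the phosphatases SHP-1 and SHP-2, and so tune signals of the B-cell receptor. FCRL6 is found on cytotoxic T cells and natural killer cells, while FCRLA and FCRLB stay inside the cell. Plasma cells, from which myeloma arises, are known for FCRL5 at their surface, which is why FCRL5 is used as a target for myeloma therapies.

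All members lie on chromosome 1 (GENCODE release 29, GRCh38). FCRL5 (157513377 to 157552520), FCRL4 (157573749 to 157598080), FCRL3 (157674321 to 157700857), FCRL2 (157745733 to 157777132) and FCRL1 (157794403 to 157820105) follow each other on the minus strand. The gap between FCRL3 and FCRL2 is 44.9 kb, and that between FCRL2 and FCRL1 is 17.3 kb. FCRL6 (159800511 to 159816251), FCRLA (161706972 to 161714352) and FCRLB (161721563 to 161728143) lie further along the chromosome on the plus strand.

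The start regions of 4 members are shown. Of the tested members, FCRL2 and FCRL3 had the largest differences between treatments, while the libraries of FCRL5 and FCRLA overlapped. The windows run from 250 bases before to 50 bases after the RefSeq start (GRCh38.p14), 5′ to 3′ on the gene's own strand, which is minus for FCRL2, FCRL3 and FCRL5 and plus for FCRLA. Capitals mark matches, on either strand, to any of 8 motifs, which were the NF-κB consensus, the octamer ATGCAAAT, the PU.1 core GAGGAA, the IRF repeat, the ETS-IRF composite, the E2A E-box CAGGTG, the MYB site CAACTG and the TATA box TATAAA.
FCRL2 (chr1:157777083-157777382): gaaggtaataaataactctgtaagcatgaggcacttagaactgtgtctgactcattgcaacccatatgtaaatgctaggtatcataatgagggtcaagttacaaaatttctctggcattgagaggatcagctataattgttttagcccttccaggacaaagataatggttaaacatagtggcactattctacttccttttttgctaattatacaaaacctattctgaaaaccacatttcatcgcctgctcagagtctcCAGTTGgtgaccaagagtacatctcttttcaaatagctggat
FCRL3 (chr1:157700720-157701019): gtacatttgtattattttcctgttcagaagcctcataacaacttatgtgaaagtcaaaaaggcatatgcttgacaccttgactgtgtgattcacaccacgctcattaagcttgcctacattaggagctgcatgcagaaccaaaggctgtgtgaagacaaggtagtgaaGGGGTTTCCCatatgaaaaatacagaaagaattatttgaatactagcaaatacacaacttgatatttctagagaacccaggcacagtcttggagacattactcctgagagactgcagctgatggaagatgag
FCRL5 (chr1:157552466-157552765): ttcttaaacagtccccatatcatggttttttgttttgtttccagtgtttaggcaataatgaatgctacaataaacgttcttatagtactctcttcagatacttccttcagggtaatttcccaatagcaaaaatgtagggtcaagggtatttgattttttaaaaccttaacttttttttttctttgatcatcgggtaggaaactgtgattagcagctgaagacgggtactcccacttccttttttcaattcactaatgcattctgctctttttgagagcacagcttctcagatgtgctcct
FCRLA (chr1:161706979-161707278): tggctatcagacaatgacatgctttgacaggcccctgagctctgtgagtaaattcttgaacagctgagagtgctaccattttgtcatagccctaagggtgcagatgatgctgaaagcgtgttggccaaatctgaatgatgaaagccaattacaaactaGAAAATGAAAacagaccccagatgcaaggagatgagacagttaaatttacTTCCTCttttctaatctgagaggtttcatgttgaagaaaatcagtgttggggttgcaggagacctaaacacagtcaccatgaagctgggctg
Counting bases from 1 at the 5′ end of each window, FCRL3 held a match to the NF-κB consensus at bases 169 to 178, GGGGTTTCCC, which reads as a match on both strands. Of all 35116 promoter windows of this length, 11.3% held such a match. FCRL2 held the MYB site on the opposite strand at bases 259 to 264, which lie after the start. Of all windows 11.4% held that site, and it was the only match in the FCRL2 window. FCRLA held the IRF repeat at bases 159 to 168 (3.57% of windows) and the PU.1 core on the opposite strand at bases 209 to 214 (27.9%). None of the 8 motifs matched in the FCRL5 window, which says only that these letters are not in it. Of the members not shown, FCRL1 also held the IRF repeat (bases 160 to 169) and, on the opposite strand, the PU.1 core (bases 237 to 242). FCRL4 held the PU.1 core. FCRLB held the octamer and the PU.1 core over its windows, and FCRL6 the PU.1 core and the ETS-IRF composite. Guanine and cytosine made up 37.7% of the FCRL2 window, 40.3% of FCRL3, 36.3% of FCRL5 and 43.3% of FCRLA, against a median of 58.7% over all windows.

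Total estimated counts ran from 21938893 to 23756745 in the Mi-2 libraries and from 19980689 to 22651557 in the DMSO libraries. Of these, 1924 to 2519 estimated counts per Mi-2 library and 2748 to 4021 per DMSO library fell on the family. Plasma cell markers, among them SDC1, TNFRSF17, PRDM1 and XBP1, summed to 11382 to 13329 CPM (estimated counts per library size, scaled by TMM) with Mi-2 and to 10548 to 13522 CPM with DMSO, and all 12 of them had counts. Of 12 B-cell markers, CD22 was at 0 in every library, and MS4A1 and PAX5 stayed at or below 0.272 CPM in every library. The B-cell markers summed to 8.98 to 16.9 CPM with Mi-2 and 13.3 to 44.1 CPM with DMSO. In DMSO library 3 most of this sum was CIITA, whose values are given below and which was not called. T and NK cell markers summed to 40.3 to 46.4 CPM with Mi-2 and 27.8 to 34.0 CPM with DMSO, nearly all of it CD3E, with CD3D and CD8A at 0. Myeloid markers summed to 69.4 to 95.2 CPM with Mi-2 and 38.3 to 48.4 CPM with DMSO, most of it CD68.

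With Mi-2, FCRL2 was 10.03-fold and FCRL3 9.40-fold lower than with DMSO, FCRL1 was 2.05-fold lower with groups that separated on only 1 of 2 scales, and FCRL5, FCRLA and FCRLB overlapped between treatments. FCRL5 and FCRL2, members of the same stretch of chromosome 1, thus had quite different values. FCRL4 and FCRL6 had too few counts to be tested. Of the 6 members with enough counts, 2 passed an adjusted p of 0.05 as lower with Mi-2 in the edgeR fit across 16082 genes, where 6.03% of all tested genes passed as lower and 5.02% as higher. Since FCRL2 and FCRL3 were the reason for choosing the family, nothing is read from that count.

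FCRL2 encodes a surface receptor of memory B cells whose tail carries inhibitory motifs. It had 8.67, 3.75 and 7.34 CPM in Mi-2 libraries 1, 2 and 3, against 92.3, 48.2 and 57.7 CPM in DMSO libraries 1, 2 and 3. Every Mi-2 library was below every DMSO library. DMSO library 1 stood highest and Mi-2 library 2 lowest. The means were 6.58 ± 2.54 CPM with Mi-2 and 66.1 ± 23.2 CPM with DMSO (SD, n = 3 each), a log2 fold change of -3.33 ± 0.31 (SE). These values rest on 191, 86.8 and 175 estimated counts with Mi-2 and on 1856, 1091 and 1251 with DMSO. Only 3 of the 16082 tested genes had a lower log2 fold change. In bulk RNA, fewer cells carrying the transcript and less of it per cell cannot be told apart.

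FCRL3, a neighbouring gene whose protein carries activating and inhibitory tail motifs and binds secretory IgA, had 1.22, 0.819 and 0.797 CPM in Mi-2 libraries 1, 2 and 3. In DMSO libraries 1, 2 and 3 it had 10.1, 8.09 and 8.58 CPM. The groups were separate, and the DMSO libraries lay closer together than for FCRL2, with a coefficient of variation of 11.7% against 35.1%. The log2 fold change was -3.23 ± 0.23, next in rank below that of FCRL2. With Mi-2 the gene had 27, 19 and 19 estimated counts, so its level there is known only roughly, against 203, 183 and 186 with DMSO. An antisense gene, ENSG00000227217, overlaps FCRL3 and shares 5.31% of the 50-base stretches of its transcripts. It had 1.69 estimated counts in all 6 libraries together. The sources used here do not say if strand was counted, so reads of the pair cannot be told apart.

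**Figure D1:**
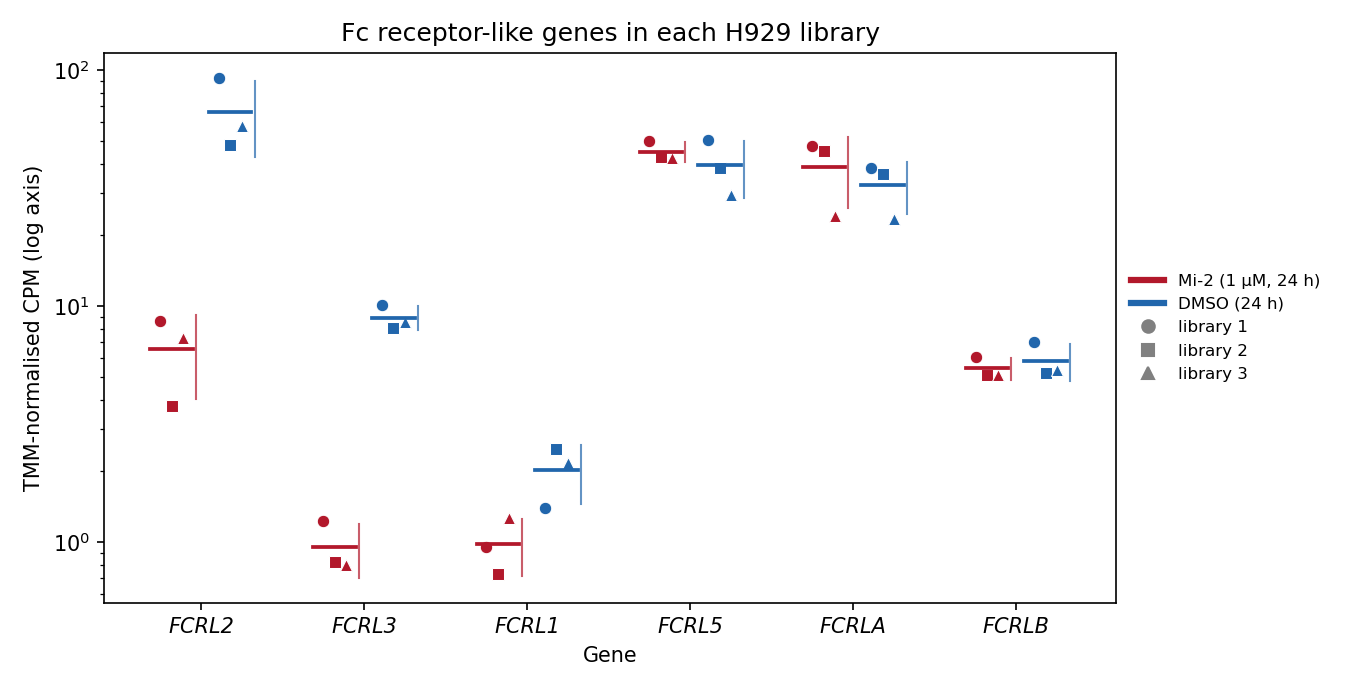
TMM-normalised CPM (log axis) of the 6 Fc receptor-like genes with enough counts, with 1 point per library, a horizontal line at the mean and a vertical line for ± 1 SD (n = 3). Mi-2 libraries of FCRL2 sit between 3.75 and 8.67 CPM, all below the DMSO libraries at 48.2 to 92.3 CPM, while the libraries of FCRL5, FCRLA and FCRLB overlap.

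FCRL1, which lies beside FCRL2 and encodes an activating co-receptor of B cells, was weakly expressed. It had 0.953, 0.733 and 1.26 CPM in Mi-2 libraries 1, 2 and 3, against 1.39, 2.48 and 2.17 CPM in DMSO libraries 1, 2 and 3. The CPM ranges were separate, as they were for 32.3% of all tested genes, but only by the gap between Mi-2 library 3 and DMSO library 1. On the TPM scale (abundance corrected for transcript length) they overlapped, at 0.42, 1.15 and 0.78 TPM with Mi-2 and 0.94, 2.59 and 1.09 TPM with DMSO. The log2 fold change of the counts was -1.03 ± 0.34. It rests on 17 to 30 estimated counts per Mi-2 library and 28 to 56 per DMSO library.

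FCRL5, the plasma cell member at the far end of the same stretch, whose protein binds IgG, had 49.95, 42.8 and 42.2 CPM in Mi-2 libraries 1, 2 and 3. The DMSO libraries had 50.6, 38.3 and 29.4 CPM. The ranges overlapped, with DMSO library 1 above all others and DMSO library 3 below them. Means were 45.0 ± 4.33 CPM with Mi-2 and 39.4 ± 10.7 CPM with DMSO (SD, n = 3 each), a log2 fold change of 0.19 ± 0.17. It had 992 to 1101 estimated counts per Mi-2 library and 637 to 1018 per DMSO library.

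**Figure D2:**
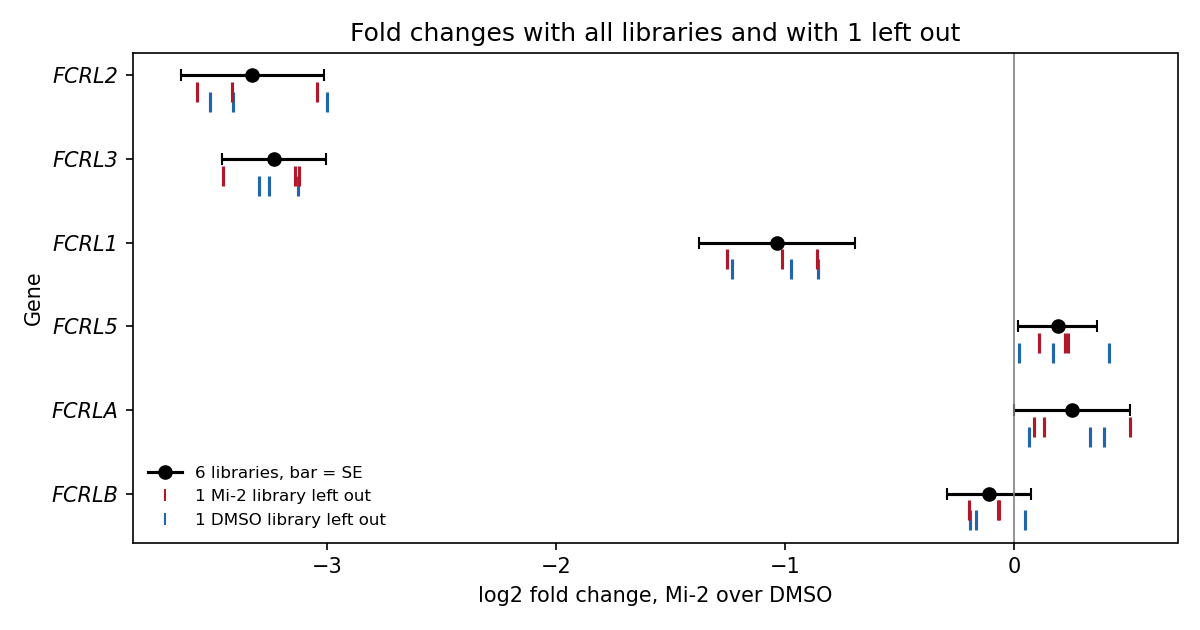
Log2 fold change, Mi-2 over DMSO, of 6 Fc receptor-like genes with all 6 libraries (black point, bar = SE) and with 1 library left out (red ticks, a Mi-2 library; blue ticks, a DMSO library). FCRL2 stays between -3.57 and -3.002 and FCRL3 between -3.45 and -3.12, and FCRLB alone has values on both sides of 0.

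FCRL4 and FCRL6 were close to absent. FCRL4, an inhibitory receptor of tissue memory B cells, had no count in any Mi-2 library and 3, 1 and 5 estimated counts in DMSO libraries 1, 2 and 3. The limit that a count of 0 allows was taken as 3 counts over the Mi-2 group. Against the DMSO counts as observed, FCRL4 was then at least 3.23-fold lower with Mi-2. That bound leaves out the counting error of the DMSO counts and would be lower with it. Without a filter on low counts, the edgeR log2 fold change of FCRL4 was -4.71 ± 1.93 (SE) and did not pass. FCRL6 had 1 count in Mi-2 library 2, 1 in DMSO library 2 and none elsewhere, so no fold is given.

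The intracellular members overlapped between treatments. FCRLA, which resides in the endoplasmic reticulum of B cells and binds antibody there, had 47.4, 45.1 and 24.0 CPM in Mi-2 libraries 1, 2 and 3, against 38.3, 36.0 and 23.3 CPM in DMSO libraries 1, 2 and 3. The third library of each treatment was low, by more than the treatments differed. Its log2 fold change was 0.25 ± 0.25. FCRLB, whose protein is also intracellular, had 6.08, 5.09 and 5.12 CPM with Mi-2 and 7.06, 5.17 and 5.35 CPM with DMSO, a log2 fold change of -0.11 ± 0.18. The sign of that value turned to 0.051 without DMSO library 1. At each library number the Mi-2 value was above the DMSO value for FCRLA and below it for FCRLB. The fit above does not use these numbers. With library number as a block in the fit, the log2 fold changes were 0.23 for FCRLA and -0.10 for FCRLB.

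Levels of different genes can be compared only per length, so the order within the family is given in TPM. With Mi-2 the order was FCRLA (26.4 ± 9.40 TPM), FCRL5 (14.5 ± 1.63), FCRLB (3.71 ± 0.567), FCRL2 (3.02 ± 1.17), FCRL1 (0.783 ± 0.365) and FCRL3 (0.290 ± 0.0819, SD, n = 3). In DMSO cells FCRL2 came first (31.3 ± 11.6 TPM), before FCRLA (23.2 ± 7.34), FCRL5 (12.6 ± 3.66), FCRLB (3.96 ± 0.832), FCRL3 (2.86 ± 0.180) and FCRL1 (1.54 ± 0.912). Libraries of FCRLA and FCRL5 overlapped in both treatments, those of FCRLB and FCRL2 overlapped with Mi-2, and those of FCRL2 and FCRLA overlapped with DMSO. These overlaps are between ranges over libraries. Within each of the 6 libraries FCRLA stood above FCRL5, with a ratio of 1.97, 2.25 and 1.18 in Mi-2 libraries 1, 2 and 3 and 1.79, 2.004 and 1.67 in DMSO libraries 1, 2 and 3. FCRL2 was the highest member in 2 of 3 DMSO libraries and in no Mi-2 library.

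The family as a whole summed to 57.6, 52.1 and 36.7 TPM in Mi-2 libraries 1, 2 and 3, against 98.75, 70.1 and 57.55 TPM in DMSO libraries 1, 2 and 3. The ranges touched, since Mi-2 library 1 (57.59 TPM) stood just above DMSO library 3. At each library number the Mi-2 sum was below the DMSO sum. FCRL2 made up 6.51 ± 3.22% of that sum with Mi-2 and 41.2 ± 7.20% with DMSO (SD, n = 3 each). FCRLA made up 52.9 ± 9.39% with Mi-2 and 30.6 ± 5.29% with DMSO, and FCRL5 made up 30.4 ± 4.90% with Mi-2 and 16.7 ± 1.34% with DMSO. Without FCRL2 and FCRL3 the other 6 members summed to 45.5 ± 11.0 TPM with Mi-2 and 41.4 ± 11.7 TPM with DMSO. The ratio of FCRL2 to FCRL3 in TPM was 10.3 ± 2.76 with Mi-2 and 10.8 ± 3.44 with DMSO, so the balance between the pair differed by less than the spread between libraries.

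**Figure D3:**
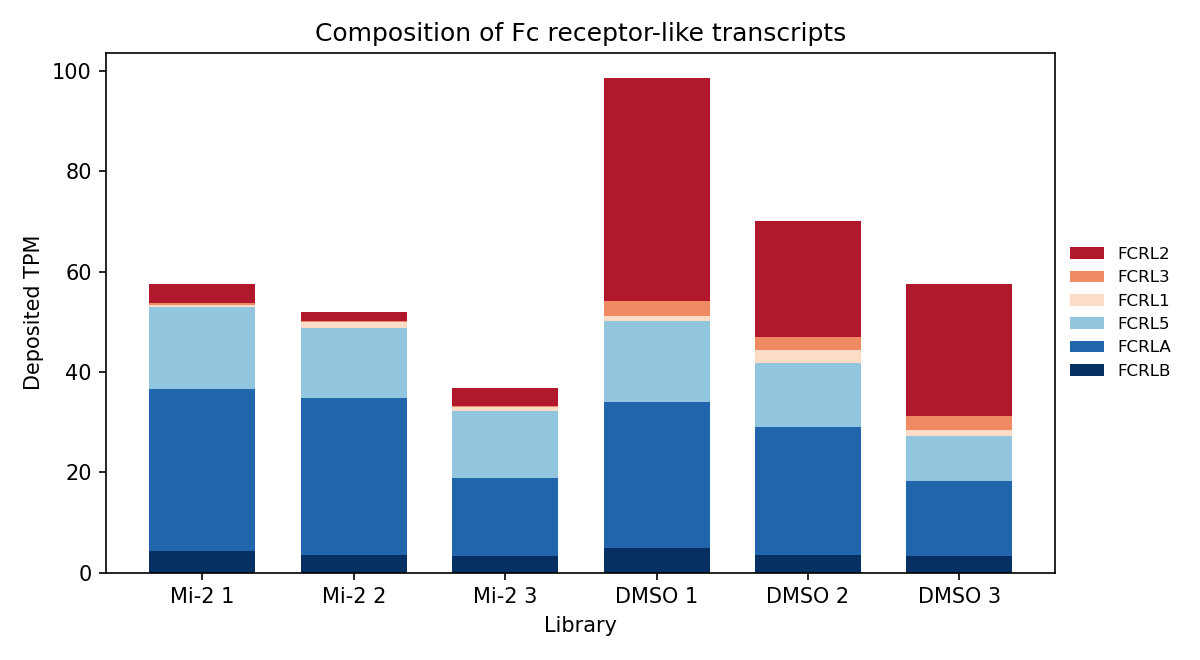
Deposited TPM of 6 Fc receptor-like genes stacked by library, Mi-2 libraries on the left and DMSO libraries on the right (FCRL4 and FCRL6 are too low to draw). The FCRL2 segment is 1.68 to 3.83 TPM with Mi-2 and 23.0 to 44.5 TPM with DMSO, while FCRLA and FCRL5 keep overlapping heights.

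The estimated count of a gene divided by its TPM gives the effective length of the transcripts behind it, here relative to the median gene of the same library (14447 genes with at least 10 counts everywhere). For FCRL2 it was 1.17 ± 0.0752 with Mi-2 and 1.14 ± 0.0267 with DMSO (SD, n = 3 each), and for FCRL3 it was 1.77 ± 0.211 with Mi-2 and 1.67 ± 0.167 with DMSO. Both differences were smaller than the spread between libraries. FCRL5, FCRLA and FCRLB each varied by 1.04 to 1.14 times between their longest and shortest library. FCRL1 varied 3.66-fold, at 1.24, 0.340 and 0.853 in Mi-2 libraries 1, 2 and 3 and 0.805, 0.533 and 1.01 in DMSO libraries 1, 2 and 3. Mi-2 library 2, with the shortest length, had the lowest CPM (0.733) and the highest TPM (1.15) of FCRL1 among the Mi-2 libraries. The CPM and TPM of FCRL1 differ through this length, which rests there on 17 counts. GENCODE lists 8 transcripts for FCRL1, of 560 to 2954 bases.

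**Figure D4:**
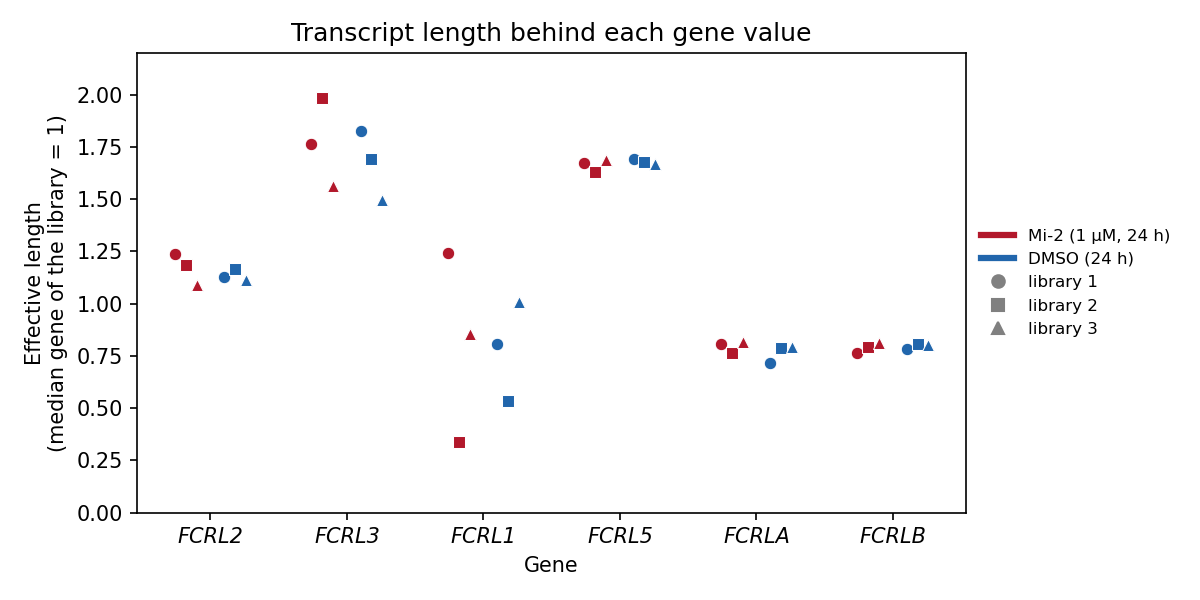
Effective transcript length of 6 Fc receptor-like genes in each library, from the estimated count divided by TPM and set to 1 for the median gene of the library. FCRL2 lies between 1.09 and 1.24 in all 6 libraries, while FCRL1 spreads from 0.340 to 1.24.

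Sequence that members share with other genes was measured, since reads from it can be divided between genes. No 50-base stretch of the GENCODE transcripts of FCRL1, FCRLA or FCRLB occurred in another gene on the same strand, and none of FCRL3. For FCRL2 the share was 1.19%, for FCRL5 0.627%, for FCRL4 0.0258% and for FCRL6 3.09%. On the opposite strand, which matters if strand was not counted, the share was 1.14% for FCRL2, 5.31% for FCRL3 and 0 for the other members. Fractional counts made up 3 of the 48 member values. They were the FCRL2 counts of Mi-2 libraries 2 and 3 and the FCRL3 count of DMSO library 1.

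The genes around the members were set beside them by position. Of 243 genes within 1 Mb of a member, 87 had enough counts to be tested, and 8 rose and 3 fell with Mi-2, together against 11.0% of all tested genes called in either direction. Their median log2 fold change was 0.0021, against 0.0050 over all tested genes. Around FCRL1 to FCRL5, 22 were tested, of which 3 fell, beside 6.03% of all tested genes. Those 3 were NAXE (-0.39 ± 0.09), GPATCH4 (-0.44 ± 0.11) and CD1D (-3.61 ± 0.73), at edgeR adjusted p of 0.0301, 0.0398 and 0.0153. NAXE, an enzyme of NADHX repair, and GPATCH4, a nucleolar protein, lie on the far side of FCRL5. With 1 library left out, NAXE kept its call only without Mi-2 library 3 or DMSO library 1 and GPATCH4 only without Mi-2 library 2 (edgeR adjusted p up to 0.109 and 0.146). Nearest on either side were ETV3, a transcriptional repressor (102 ± 2.94 CPM with Mi-2 and 109 ± 11.4 CPM with DMSO), and CD5L, a secreted scavenger protein (1.05 ± 0.395 CPM with Mi-2 and 1.54 ± 0.885 CPM with DMSO). Neither passed the threshold (edgeR adjusted p = 0.590 and 0.512).

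CD1D, which encodes a lipid-presenting molecule and was named after its values were seen, lies 403 kb from the start of FCRL2. It had 0, 2 and 1 counts in Mi-2 libraries 1, 2 and 3, against 17, 11 and 10 in DMSO libraries 1, 2 and 3. Every Mi-2 library was below every DMSO library. It passed the count filter only through its DMSO libraries, so its call and ratio are a description and no support. The ratio of Mi-2 to DMSO was 0.0734, with an exact 95% interval of 0.0145 to 0.231 that covers counting error only. DESeq2 gave no adjusted p for CD1D. Without Mi-2 library 1 it did not pass (edgeR adjusted p = 0.0556). Between FCRL2 and CD1D, CD5L was the only gene besides FCRL1 with enough counts to be tested.

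**Figure D5:**
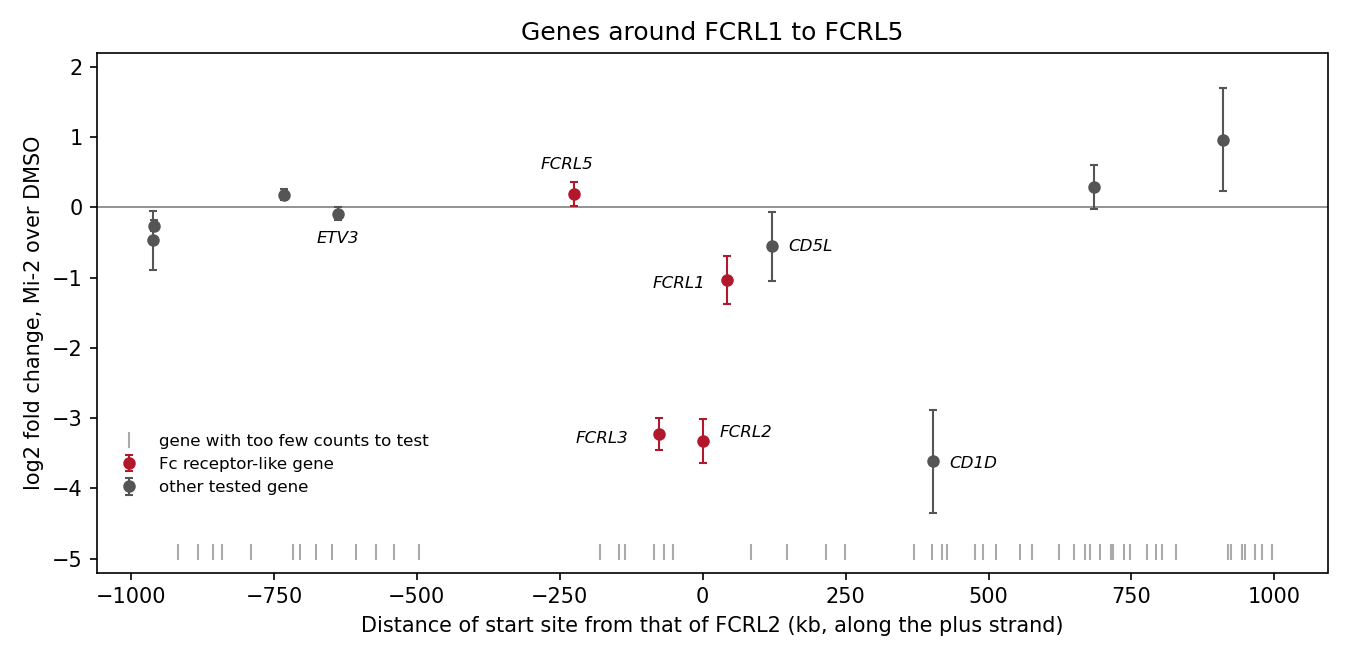
Log2 fold change, Mi-2 over DMSO, with SE, of tested genes within 1 Mb of the start of FCRL2 by distance from it, with Fc receptor-like genes in red and genes with too few counts as grey ticks. FCRL3, FCRL2 and CD1D lie below -3, while FCRL5 and ETV3 lie near 0. CD1D passed the count filter only through its DMSO libraries.

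Near FCRL6, 25 genes were tested, of which 6 rose, beside 5.02% of all tested genes. They included COPA, a subunit of the COPI vesicle coat (883 ± 54.3 CPM with Mi-2 and 620 ± 41.5 CPM with DMSO, log2 fold change 0.51 ± 0.09, edgeR adjusted p = 0.0108), and ENSG00000272668, for which the tables give no symbol (0.79 ± 0.13, edgeR adjusted p = 0.00737). The call of COPA was lost without DMSO library 2 (edgeR adjusted p = 0.0533). The nearest tested genes were DUSP23, a phosphatase (24.9 ± 1.86 CPM with Mi-2 and 26.0 ± 1.54 CPM with DMSO), and ENSG00000256029 (5.44 ± 0.178 CPM with Mi-2 and 2.76 ± 1.3 CPM with DMSO, edgeR adjusted p = 0.0822, but 0.0238 with DESeq2 and 0.0017 with edgeR without a filter on low counts). Near FCRLA and FCRLB, 40 were tested, of which 2 rose. LY9, a receptor of the SLAM family on lymphocytes, rose (152 ± 17.8 CPM with Mi-2 and 98.4 ± 9.21 CPM with DMSO, 0.63 ± 0.11, edgeR adjusted p = 0.00902). FCGR2B, the inhibitory receptor for IgG beside FCRLA, had 5.06 ± 1.90 CPM with Mi-2 and 4.42 ± 2.05 CPM with DMSO, and DUSP12, beside FCRLB, had 55.3 ± 1.24 CPM with Mi-2 and 61.0 ± 2.53 CPM with DMSO. Neither passed (edgeR adjusted p = 0.763 and 0.276).

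The related classical Fc receptors showed no call. Of 16 genes, 5 had enough counts, and none rose or fell in the edgeR fit, none at an unadjusted p under 0.05 and none with DESeq2, with a median log2 fold change of -0.17. FCMR, the receptor for IgM, had 36.0 ± 11.3 CPM with Mi-2 and 40.4 ± 12.2 CPM with DMSO. TRIM21, a cytosolic antibody receptor, had 35.5 ± 6.22 CPM with Mi-2 and 32.2 ± 4.96 CPM with DMSO. FCER2, the low-affinity receptor for IgE, had 1.84 ± 0.650 CPM with Mi-2 and 2.76 ± 1.21 CPM with DMSO.

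Among the reported ligands of the family, 5 of 10 chains had enough counts and 1 rose, beside 5.02% of all tested genes, with a median of 0.07. IGHA1, the constant chain of IgA1, rose (14.1 ± 3.35 CPM with Mi-2 and 6.96 ± 2.05 CPM with DMSO, 1.02 ± 0.25, edgeR adjusted p = 0.0289). IGHA1 and IGHA2 are near-identical, so reads could be divided between them, and the call held only without Mi-2 library 2 or without DMSO library 1 (edgeR adjusted p up to 0.0941 in the other fits). JCHAIN, whose product joins IgA and is part of the IgA forms that FCRL3 and FCRL4 bind, had 4851 ± 753 CPM with Mi-2 and 4632 ± 723 CPM with DMSO. HLA-DRA, a chain of the HLA class II ligand of FCRL6, had 0.635, 4.31 and 29.5 CPM in Mi-2 libraries 1, 2 and 3, against 1.69, 17.1 and 74.4 CPM in DMSO libraries 1, 2 and 3. The ranges overlapped, with library 1 lowest and library 3 highest in both treatments (-1.43 ± 1.17, edgeR adjusted p = 0.478). At each library number the Mi-2 value was below the DMSO value, which this fit does not use.

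Of 24 genes that carry signals from the tails of these receptors, 19 were tested, 3 rose and 1 fell, where 5.02% of all tested genes rose and 6.03% fell, and their median was 0.08. CD79B, a signalling chain of the B-cell receptor, rose (48.0 ± 7.59 CPM with Mi-2 and 28.6 ± 3.60 CPM with DMSO, 0.75 ± 0.14, edgeR adjusted p = 0.0110). Its partner CD79A had at most 0.398 CPM in any library. FYN, a Src family kinase, rose (36.9 ± 2.40 CPM with Mi-2 and 25.8 ± 1.5 CPM with DMSO, 0.52 ± 0.10), as did PECAM1, an adhesion receptor with inhibitory motifs (0.35 ± 0.10), at edgeR adjusted p of 0.0116 and 0.0488. PIK3AP1, an adaptor for PI3K, fell (2.64 ± 0.207 CPM with Mi-2 and 4.61 ± 0.980 CPM with DMSO, -0.80 ± 0.22, edgeR adjusted p = 0.0463). CD79B kept its call with any library left out but not in limma on log2(TPM + 1) (adjusted p = 0.101), where FYN kept its own (0.0262). FYN lost its call without Mi-2 library 1 (edgeR adjusted p = 0.0546), PIK3AP1 kept it only without DMSO library 1 (up to 0.154), and PECAM1 only without Mi-2 library 2 (up to 0.173). The phosphatase genes PTPN6 (SHP-1) and PTPN11 (SHP-2), which inhibitory tails recruit, did not pass. PTPN6 had 184 ± 18.9 CPM with Mi-2 and 194 ± 34.6 CPM with DMSO, and PTPN11 had 154 ± 14.2 CPM with Mi-2 and 184 ± 10.3 CPM with DMSO. SYK, the kinase that activating tails recruit, had at most 0.0907 CPM in any library.

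Of 31 transcription factors of the B lineage and of NF-κB, 26 were tested, 1 rose and 1 fell, a share near or below the 5.02% and 6.03% of all tested genes, with a median of -0.04. IRF4, a plasma cell regulator, rose (2192 ± 26.6 CPM with Mi-2 and 1726 ± 140 CPM with DMSO, 0.35 ± 0.09, edgeR adjusted p = 0.0441). MYB fell (2.85 ± 1.71 CPM with Mi-2 and 9.23 ± 3.74 CPM with DMSO, -1.69 ± 0.42, edgeR adjusted p = 0.0327). A link between MYB and the members was not tested. With 1 library left out, IRF4 kept its call only without DMSO library 1 and MYB only without DMSO library 1 or Mi-2 library 3 (edgeR adjusted p up to 0.168 and 0.108). The NF-κB subunit genes RELB (12.96 ± 4.80 CPM with Mi-2 and 24.7 ± 12.98 CPM with DMSO) and NFKB2 (72.2 ± 21.5 CPM with Mi-2 and 119 ± 51.5 CPM with DMSO) did not pass (edgeR adjusted p = 0.160 and 0.184).

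Of the marker lists, plasma cell genes moved both ways, with 3 of 10 tested higher and 2 lower, beside 5.02% and 6.03% of all tested genes, and a median of -0.02. MZB1, a chaperone of antibody secretion (0.70 ± 0.11), and DERL3, a protein of endoplasmic reticulum degradation (0.61 ± 0.16), rose beside IRF4, while SDC1, the surface marker syndecan-1 (-0.69 ± 0.15), and CD38 (-0.86 ± 0.21) fell, at edgeR adjusted p of 0.00576, 0.0378, 0.0180 and 0.0296. With 1 library left out MZB1 kept its call, while DERL3, SDC1 and CD38 lost theirs in some fits (edgeR adjusted p up to 0.136, 0.0681 and 0.101). Of 6 tested B-cell markers, 2 had an unadjusted edgeR p under 0.05, as did 4347 of all 16082 tested genes. None of the 6 was called by edgeR or DESeq2, and the list stood at a median of -0.65. CIITA, the regulator of HLA class II, had the lowest value of them, with 3.04, 4.57 and 7.88 CPM in Mi-2 libraries 1, 2 and 3 against 4.77, 18.1 and 33.1 CPM in DMSO libraries 1, 2 and 3 (edgeR adjusted p = 0.0679). CD3E (0.50 ± 0.11, edgeR adjusted p = 0.0180) and CD68 (0.94 ± 0.14, edgeR adjusted p = 0.00507) were the only tested markers of T or NK cells and of myeloid cells, and both rose. CD3E lost its call without DMSO library 2 (edgeR adjusted p = 0.0752). The part of these shifts in the values of FCRL2 and FCRL3 was not tested.

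The genes most like FCRL2 across the 6 libraries were sought by the root-mean-square difference of log2 CPM profiles, each centred on its own mean. FCRL3 came first of 12013 genes at 0.36, against a median of 1.74, followed by the fructose transporter gene SLC2A5 (0.63), ANKRD30B (0.87), the scaffold gene AKAP12 (0.93) and the immediate early transcription factor gene EGR1 (0.94). FCRL3 in turn was closest to FCRL2 (0.36), SLC2A5 (0.54), ANKRD30B (0.59), NSG2 (0.79) and the aspartic protease gene NAPSA (0.84). FCRL5 was closest to genes with little difference between the treatments, GATA3 (0.07) first, and its distance was 0.29 to FCRLA and 0.21 to FCRLB but 1.82 to FCRL2. The likeness uses the same contrast that chose the family and is a description of 6 libraries.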

How the data were processed

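RNA-seq of H929 cells was deposited as 1 estimated count and 1 TPM value per gene and library. Per the submitters' processing notes, which name no roles, the authors worked on GRCh38.p13 with RSEM 1.3.3, StringTie 2.1.0, HISAT2 2.1.0 and fastp 0.19.5. The sources used here give neither strand nor RNA selection. After rounding of the deposited estimated counts, genes were filtered with filterByExpr (minimum count 10, total 15) and TMM scaled, and Mi-2 was compared with DMSO over 3 libraries each by edgeR 4.0.16 (quasi-likelihood, Benjamini-Hochberg over 16082 genes, threshold 0.05) in R 4.3.3. The coefficient of variation between libraries, by edgeR's common dispersion, was 14.2%. CPM are TMM-normalised. The authors' TPM served for levels between genes and, as log2(TPM + 1) and log2(TPM + 0.1), for limma 3.58.1. Fits were tested on simulated data.

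The members and gene lists were chosen with earlier results of these data known. Named genes are all members, up to 3 called genes per direction and list with the largest change at a mean log2 CPM of at least 1, the nearest tested neighbours, and the 5 genes most like FCRL2, FCRL3 and FCRL5. Alternatives were DESeq2 1.42.0, upper-quartile and RLE scaling, other filters, TPM, a replicate block and leaving out each library. Positions are from GENCODE 29, promoters from RefSeq GRCh38.p14 (all 8 members matched). The CD1D interval covers counting error only, and the FCRL4 bound covers that of the Mi-2 counts only.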

Additional observations from a re-analysis of the deposited data

How the results depend on the processing

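The alternatives refit the libraries that chose FCRL2 and FCRL3, so their calls are no support. The members' count lower was 2, but 0 in limma on log2(TPM + 1) without a TPM filter, which called no gene higher or lower (0 and 0, with 3808 at an unadjusted p under 0.05) among 31463 genes. It was 3, with FCRL1, without a filter on low counts and with a replicate block. Over all genes, with 808 higher and 969 lower in the edgeR fit, the counts were 1221 and 1541 without a filter on low counts, 229 and 381 with log2(TPM + 1), and 249 and 398 with log2(TPM + 0.1). Leaving out 1 library gave 226 to 720 higher and 316 to 879 lower, the lowest without Mi-2 library 1. DESeq2 gave 1045 and 1269.

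Library numbers are shared between treatments, but the labels do not say that they pair samples, and the main fit left them out. Deviations of same-numbered libraries correlated at 0.41, 0.059 and 0.26, and 5 of 6 libraries correlated best with their own number. A pairing or a batch shared by number thus remains possible, and the main fit does not account for it. With the number as a replicate block, 1791 genes were higher and 2035 lower. The block gave 2 lower signalling genes, 2 lower ligands (HLA-DRA and HLA-DRB1, each lower with Mi-2 at every library number), 3 higher and 3 lower transcription factors, and 16 higher and 13 lower neighbours, with ENSG00000256029 called (adjusted p = 0.0208).

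Signalling genes higher numbered 1 with log2(TPM + 1), 1 with log2(TPM + 0.1), 0 without the TPM filter and 1 to 3 with a library left out. Those lower numbered 0 in these TPM fits and under upper-quartile scaling, and 0 to 1 with a library left out. Ligands higher numbered 0 in the TPM fits and 0 to 1 with a library left out, and 2 were lower without a count filter. Transcription factors higher numbered 2 with DESeq2 and without a count filter, 0 in the TPM fits and 0 to 2 with a library left out. Those lower numbered 4 without a count filter, 0 in the TPM fits and 0 to 3 with a library left out. Neighbours were 15 higher and 7 lower without a count filter, 3 and 1 in both filtered TPM fits, 0 and 0 without the TPM filter, and 3 to 8 higher and 0 to 3 lower with a library left out.

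Signs turned with a library left out for FCRLB (-0.20 to 0.051), FCGR2B (-0.15 without Mi-2 library 1, -0.019 without DMSO library 3, up to 0.64), GATA3 (-0.076 to 0.27), TTTY10 (-0.016 to 0.30) and MTURN (-0.047 without DMSO library 3, -0.037 without Mi-2 library 1, up to 0.34). GATA3 also turned with log2(TPM + 1), filtered or not (-0.17), and log2(TPM + 0.1) (-0.19), and MTURN with unfiltered log2(TPM + 1) (-0.33). The cause was not tested. Low counts limit FCRL1, FCRL3 with Mi-2, FCRL4, FCRL6 and CD1D.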
